A study of Homo sapiens with 8 samples.

Results

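The genes described here are AXL and 9 others, namely the receptors TYRO3, MERTK, MET, DDR1, DDR2, PDGFRA, PDGFRB and KIT and the ligand GAS6. They were chosen by name as the AXL (TAM), MET, discoidin domain, PDGF receptor and KIT classes of receptor tyrosine kinases, and each was read from probesets that the array annotation assigns to that gene alone. All 10 were found among the 18417 genes measured in this way, and all 10 passed the filter on low signal that left 15931 genes to test. RNA was profiled from spheroids, compact cell aggregates about 300 μm across grown in 2% agarose molds, of 2 human ovarian adenocarcinoma lines kept in medium with 10% serum. OVCAR-8 is the parental line, which was never selected with cisplatin, the DNA-crosslinking platinum drug. OVCAR-8R, named OVCAR-8C in the sample labels, was derived from it by continuous exposure to rising cisplatin up to 5 μM, and it kept its resistance once the drug was withdrawn. Each line was measured on 4 Affymetrix Human Gene ST arrays, titled biological replicates, so the comparison is between 1 resistant derivative and its parent, and the p-values rest on the spread over these arrays alone, which may in part be technical.

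Receptor tyrosine kinases are membrane proteins that bind a ligand outside the cell, pair up and phosphorylate tyrosines on their own tails, to which adaptor proteins dock and pass the signal to the RAS, PI3K and PLC-gamma pathways. AXL, TYRO3 and MERTK form the TAM class and bind the vitamin K-dependent proteins GAS6 and PROS1, whereas MET binds HGF, the PDGF receptors bind PDGF dimers and KIT binds KITLG. DDR1 and DDR2 differ from the rest in that their ligand is collagen. In carcinoma cells AXL is best known as a gene of mesenchymal and drug-tolerant states, MET as a driver of scattering and invasion, and KIT and the PDGF receptors as genes of mast, germ, interstitial and stromal cells.

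Of the 10 genes, AXL, GAS6 and MET were higher in OVCAR-8R spheroids, DDR2 and KIT were lower, and TYRO3, MERTK, DDR1, PDGFRA and PDGFRB did not pass the test. A gene was called where the Benjamini-Hochberg adjusted p from limma was under 0.05 over all probesets kept and the lines differed by at least 2-fold. The same rule called 16.7% of all 15931 genes tested, 8.37% as higher and 8.37% as lower, against 5 of the 10 genes here, 3 higher and 2 lower. The 10 genes were chosen with earlier results of these data known, so this contrast is no independent result. The median difference of the 10 genes was 0.19 on the log2 scale and that of all genes tested was -0.01. All values below are log2 RMA signals or their differences, taken as OVCAR-8R minus OVCAR-8. Levels of different genes are not ranked, since probesets differ in brightness, and a ratio of 2 genes is used only to compare its shift between the lines.

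The upstream sequences of the 4 genes with the largest differences are shown for reference, since AXL rose together with its ligand GAS6 while DDR2 and KIT fell. They are the 250 bases before the RefSeq gene start in GRCh38.p14, read 5′ to 3′ on the strand of the gene, and capitals mark each match to GGGCGG, the GC box bound by SP1, on either strand. The AXL window is chr19:41218973-41219222 (+), that of GAS6 chr13:113864077-113864326 (-), that of DDR2 chr1:162630613-162630862 (+) and that of KIT chr4:54657707-54657956 (+).
AXL: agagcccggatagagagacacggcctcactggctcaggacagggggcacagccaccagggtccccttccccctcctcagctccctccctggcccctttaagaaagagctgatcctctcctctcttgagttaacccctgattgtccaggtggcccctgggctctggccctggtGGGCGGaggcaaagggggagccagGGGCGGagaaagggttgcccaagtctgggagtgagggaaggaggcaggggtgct
GAS6: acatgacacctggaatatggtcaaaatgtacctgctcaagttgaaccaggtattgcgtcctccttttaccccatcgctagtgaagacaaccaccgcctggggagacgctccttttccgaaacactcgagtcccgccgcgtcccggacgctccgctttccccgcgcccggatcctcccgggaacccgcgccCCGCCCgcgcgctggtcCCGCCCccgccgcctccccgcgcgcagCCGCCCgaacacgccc
DDR2: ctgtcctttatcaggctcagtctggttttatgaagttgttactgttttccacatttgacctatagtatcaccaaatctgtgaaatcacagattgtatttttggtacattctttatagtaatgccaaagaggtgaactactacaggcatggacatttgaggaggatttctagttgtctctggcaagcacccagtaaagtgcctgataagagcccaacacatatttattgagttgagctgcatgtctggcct
KIT: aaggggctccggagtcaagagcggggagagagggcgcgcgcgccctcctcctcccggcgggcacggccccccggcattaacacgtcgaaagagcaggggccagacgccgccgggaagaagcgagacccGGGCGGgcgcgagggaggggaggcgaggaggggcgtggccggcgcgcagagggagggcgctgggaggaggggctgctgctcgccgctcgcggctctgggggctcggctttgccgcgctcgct
The AXL window held 2 GC boxes, that of GAS6 held 3 and that of KIT held 1, whereas the DDR2 window held none and had a GC content of 40%. RefSeq lists 2 promoters for AXL and 3 for DDR2, and only the window at the gene start is described here. A GC box was found in 7 of the 10 windows and in 42.6% of the 35116 RefSeq promoter windows of the same length. Those 35116 hold several windows for some genes, whereas each of the 10 genes has 1, so the shares are not like for like. TGANTCA, a loose form of the AP-1 site, allows any base at N. Among the 10 it was matched only in the windows of TYRO3 and PDGFRA, both times by TGAATCA, and in 6.57% of all windows. A TEAD match (GGAATG) was found in none of the 10 and in 11.9% of all. These letters describe the windows and were not measured in the cells.

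AXL had the largest difference of the 10 genes and stood 49th from the top among the 15931 genes tested. The OVCAR-8R arrays read 11.00, 11.04, 11.09 and 10.98 on the log2 scale and the OVCAR-8 arrays 6.66, 6.58, 6.66 and 6.19. Every OVCAR-8R array lay more than 4 log2 units above every OVCAR-8 array, and array 4 was the lowest of the OVCAR-8 arrays. AXL rose by 4.50 (standard error 0.11, adjusted p = 1.26e-09 from limma), a 22.7-fold difference, with a 95% confidence interval from 4.26 to 4.75. The gene lies on chromosome 19 (GRCh38.p14, 41219223 to 41261766).

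The other TAM receptors did not share this rise. TYRO3 read 6.86, 6.80, 6.94 and 6.84 in OVCAR-8R and 7.69, 7.53, 7.70 and 7.40 in OVCAR-8, a difference of -0.72 (standard error 0.08, adjusted p = 5.70e-05 from limma). MERTK, best known from macrophages and retinal epithelium, where it serves the uptake of dying cells and shed membranes, read 7.57, 7.71, 7.83 and 7.76 in OVCAR-8R against 8.11, 8.14, 8.08 and 8.20 in OVCAR-8, a difference of -0.42 (0.08, adjusted p = 0.00111 from limma). In both genes the lines did not overlap and OVCAR-8R was the lower line, but the size stayed under 2-fold. The ratio of AXL to TYRO3 on the same array was thus 5.22 log2 units higher in OVCAR-8R than in OVCAR-8, and the ratio of AXL to MERTK 4.92 units higher, directions that the separation of the single genes already fixes. The ratio of TYRO3 to MERTK differed by -0.30 log2 units (exact two-sided permutation p = 0.0571, also 0.0571 after Benjamini-Hochberg adjustment over the 2 ratios tested).

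GAS6, the secreted ligand with the highest affinity for AXL, rose with it. Its OVCAR-8R arrays read 8.16, 8.48, 8.04 and 8.17 and its OVCAR-8 arrays 6.24, 6.62, 6.59 and 5.93. The arrays of each line were spread more widely than those of the other 9 genes in OVCAR-8R and in OVCAR-8 alike, yet the lines stayed 1.42 log2 units apart. GAS6 rose by 1.87 (standard error 0.16, adjusted p = 6.39e-06 from limma), a 3.65-fold difference. PROS1, the anticoagulant protein S and the other TAM ligand, ranged from 9.51 to 9.78 in OVCAR-8R and from 9.03 to 9.16 in OVCAR-8, a difference of 0.56 (0.08) that did not reach 2-fold. GGCX and VKORC1, the carboxylase that activates both ligands and the reductase that recycles its vitamin K, differed by -0.12 and -0.19, without passing.

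MET rose by less than AXL. The OVCAR-8R arrays read 9.27, 9.47, 9.31 and 9.42 and the OVCAR-8 arrays 8.01, 8.01, 8.23 and 8.27, so that the lines were 0.996 log2 units apart at their nearest arrays. MET rose by 1.24 (standard error 0.09, adjusted p = 1.88e-06 from limma), a 2.36-fold difference. Under treat, a test against the 2-fold threshold itself, MET did not pass (adjusted p = 0.149, within a range of 5.33e-07 to 0.149 over all the alternatives). HGF, the ligand of MET and typically a product of stromal cells, ranged from 4.57 to 4.68 in OVCAR-8R and from 4.64 to 4.79 in OVCAR-8, within the lowest quartile of both lines, and was left out of the test. SPINT2, an inhibitor of the proteases that activate HGF, rose by 1.04 (0.10), a call that ended without OVCAR-8 replicate 3 (0.999) or without OVCAR-8 replicate 4 (0.98). HGF activator genes HGFAC, ST14 and HPN differed by 0.31, 0.04 and 0.17, without passing.

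**Figure D1:**
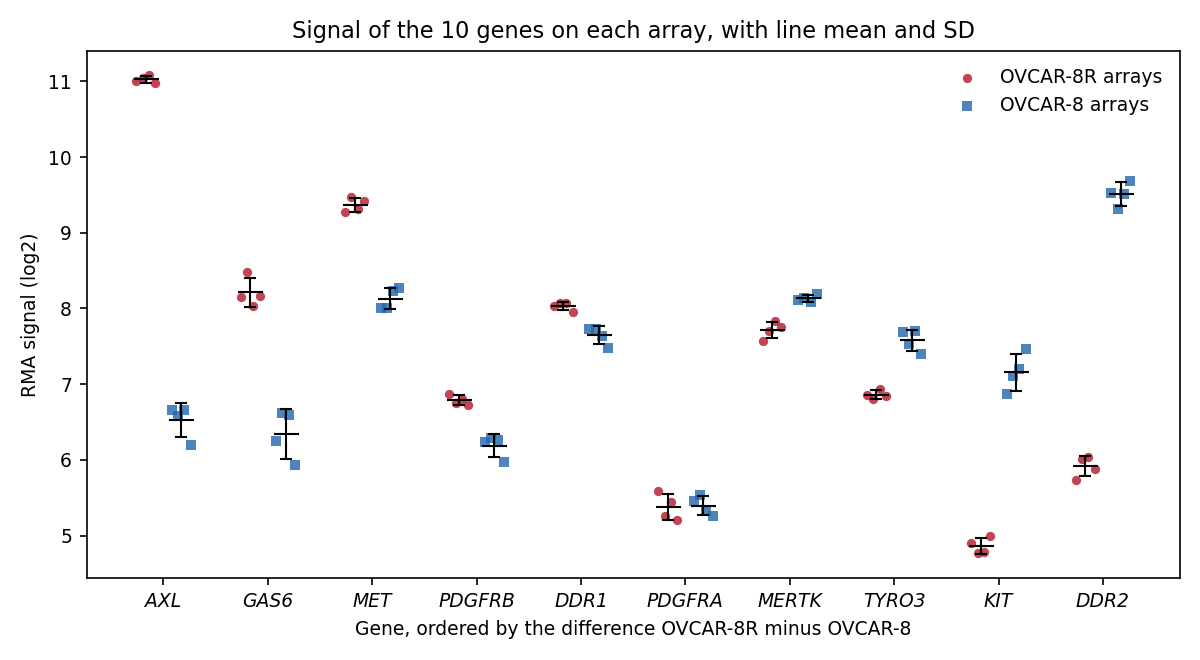
Log2 RMA signal of the 10 genes on each of the 4 OVCAR-8R arrays (red circles) and the 4 OVCAR-8 arrays (blue squares), where black bars give each line's mean and SD and genes run from the largest rise to the largest fall. The lines are separated for every gene except PDGFRA, widely for AXL (4.50) and DDR2 (-3.59) and narrowly for MERTK and DDR1.

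The collagen receptors went apart. DDR2, the receptor of fibrillar collagen in mesenchymal cells, read 5.74, 6.02, 6.04 and 5.88 in OVCAR-8R against 9.53, 9.31, 9.51 and 9.69 in OVCAR-8. All OVCAR-8R arrays were more than 3 log2 units below all OVCAR-8 arrays. DDR2 fell by 3.59 (standard error 0.10, adjusted p = 3.37e-09 from limma), 12.1-fold lower in OVCAR-8R, and stood 31st from the bottom of the genes tested. A further probeset of DDR2 read 5.09, 4.88, 5.51 and 5.29 in OVCAR-8R against 8.54, 7.88, 8.22 and 8.34 in OVCAR-8, and fell by 3.05 (0.17, adjusted p = 2.75e-07 from limma). DDR1, the epithelial member of the class, read 8.04, 8.07, 8.07 and 7.96 in OVCAR-8R and 7.73, 7.72, 7.64 and 7.48 in OVCAR-8. Its difference was 0.39 (0.08, adjusted p = 0.00191 from limma), with no overlap between the lines, and its other probesets gave 0.36 and 0.44, none of them reaching 2-fold. The ratio of DDR1 to DDR2 on the same array was thus 3.98 log2 units higher in OVCAR-8R.

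Of 15 collagen genes tested whose products bind DDR1 or DDR2, 1 was higher in OVCAR-8R and none was lower. This is 6.67% called, against 16.7% of all genes tested. COL1A1, the larger share of the collagen I triple helix, rose by 2.04 (standard error 0.08, adjusted p = 3.70e-08 from limma), while COL1A2, which completes that helix, had a difference of -0.04 (0.08). The basement membrane collagen genes COL4A1 and COL4A2, ligands of DDR1, had differences of 0.62 and 0.64 and did not reach 2-fold. The median of the 15 was -0.04.

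KIT, the stem cell factor receptor of germ cells, mast cells and melanocytes, was the other gene that fell. It read 4.90, 4.77, 4.78 and 4.99 in OVCAR-8R and 6.87, 7.11, 7.20 and 7.46 in OVCAR-8. KIT fell by 2.30 (standard error 0.12, adjusted p = 2.34e-07 from limma), 4.91-fold lower in OVCAR-8R, where its mean lay in the lowest quartile of signal, so that the size of the fall depends on the background there. KITLG, its ligand, ranged from 6.67 to 7.02 in OVCAR-8R and from 6.002 to 6.28 in OVCAR-8, a difference of 0.64 (0.10) in the opposite direction, which did not reach 2-fold.

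PDGFRA and PDGFRB, receptors that mark fibroblasts, pericytes and other stromal cells, did not pass. PDGFRA read 5.59, 5.26, 5.44 and 5.21 in OVCAR-8R and 5.46, 5.54, 5.32 and 5.26 in OVCAR-8, the only one of the 10 genes whose lines overlapped. Its difference was -0.02 (standard error 0.10, adjusted p = 0.895 from limma), with a 95% confidence interval from -0.25 to 0.21. PDGFRB read 6.87, 6.75, 6.80 and 6.73 in OVCAR-8R and 6.23, 6.29, 6.27 and 5.97 in OVCAR-8, a difference of 0.60 (0.09, adjusted p = 0.000242 from limma) that stayed under 2-fold. The ratio of PDGFRA to PDGFRB differed by -0.62 log2 units between the lines (exact two-sided permutation p = 0.0286, the smallest that 4 against 4 arrays allow, and 0.0571 adjusted over the 2 ratios tested). As PDGFRA differed by only -0.02, this shift is almost that of PDGFRB alone, and its p-value is no separate support. Across the 10 genes 9 had arrays that did not overlap between the lines, as did 56.8% of all genes tested.

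Of the 4 PDGF ligand genes, PDGFC and PDGFA rose and PDGFB and PDGFD did not pass. PDGFC, secreted in a latent form that proteases activate, read 8.98, 9.13, 9.26 and 9.26 in OVCAR-8R and 6.68, 6.71, 6.67 and 6.83 in OVCAR-8. It rose by 2.43 (standard error 0.08, adjusted p = 1.37e-08 from limma). PDGFA, the ligand of PDGFRA homodimers, read 8.23, 8.47, 8.19 and 8.48 against 7.01, 6.84, 7.22 and 6.997, and rose by 1.33 (0.11, adjusted p = 3.62e-06 from limma), a call that ended with treat. PDGFB, which binds both receptors, had a difference of -0.05 (0.14), and PDGFD one of 0.87 (0.09) from a signal in the lowest quartile in OVCAR-8. Of the 7 ligand genes tested for the TAM, PDGF and KIT receptors, 3 were higher (GAS6, PDGFA and PDGFC) and none was lower. This is 42.9% called, against 16.7% of all genes tested. The median of the 7 was 0.87, the value of PDGFD, and HGF was left out of the test.

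**Figure D2:**
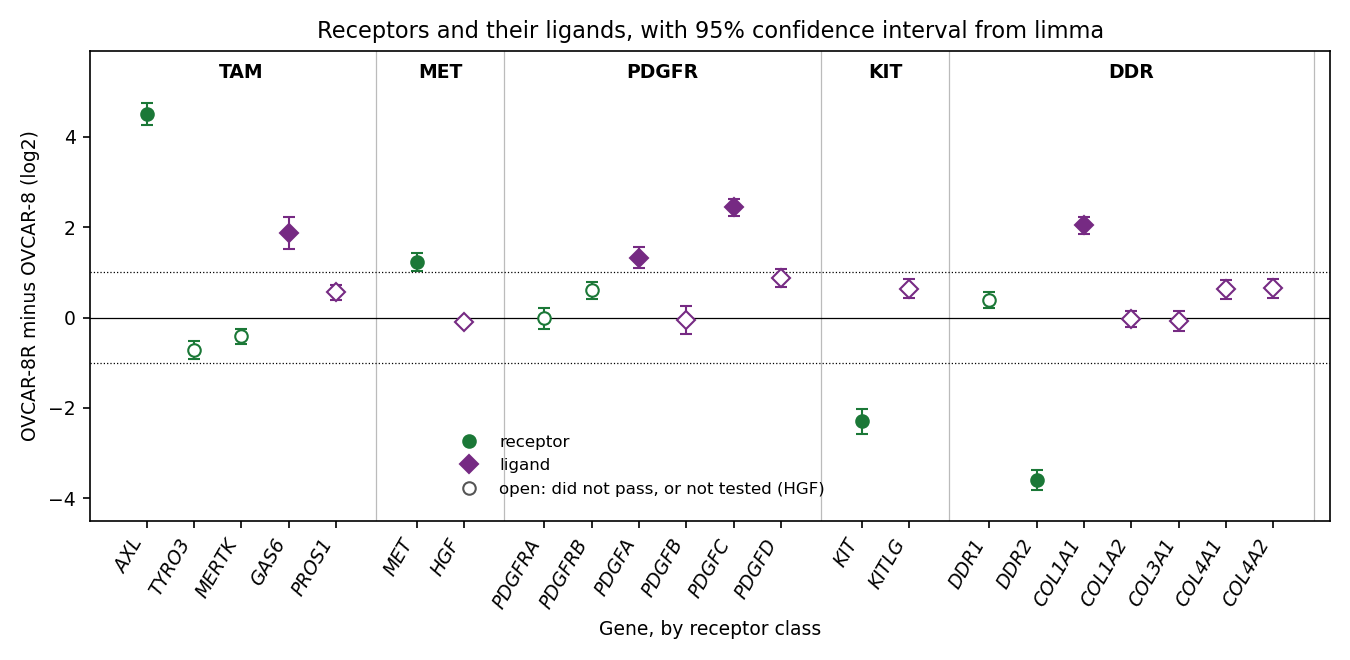
Difference OVCAR-8R minus OVCAR-8 (log2) of each receptor (green circles) and its ligands (purple diamonds) by class. Bars give the 95% confidence interval from limma over 4 arrays per line, and dotted lines mark 2-fold. Open symbols did not pass, except that HGF was not tested and has no interval. Of the collagen genes only COL1A1, COL1A2, COL3A1, COL4A1 and COL4A2 are drawn. AXL rose with GAS6 (4.50 and 1.87), whereas PDGFA and PDGFC rose while PDGFRA lay at -0.02, and DDR2 fell by 3.59 while COL1A1 rose by 2.04.

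The list of genes for ligand activation and receptor shedding holds both proteases and their inhibitors. It had 4 of 14 genes called, 28.6% against 16.7% of all genes tested. PLAU, PLAT and the inhibitor gene SPINT2 (above, with a call that rests on single arrays) were higher and the inhibitor gene TIMP3 was lower. PLAU, the urokinase that can activate PDGFD and HGF precursors, rose by 4.09 (standard error 0.09, adjusted p = 5.96e-10 from limma), and PLAT, the tissue plasminogen activator that cleaves latent PDGFC, by 1.89 (0.07). TIMP3, a matrix-bound inhibitor of metalloproteinases and ADAM sheddases, fell by 2.40 (0.09, adjusted p = 1.99e-08 from limma). The sheddases ADAM10 and ADAM17, which release the ectodomains of AXL and MET, had differences of 0.33 and 0.59 and did not reach 2-fold.

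Of 24 tested adaptors and signal relays, 4 were higher and none was lower, which is 16.7% of the list and the same share as over all genes tested. SHC1, which links receptors to GRB2 and RAS, rose by 1.60 (standard error 0.08), PIK3CB, a catalytic subunit of PI3K, by 1.497 (0.13), the guanine nucleotide exchange factor gene VAV2 by 1.11 (0.14) and the docking protein gene GAB2 by 1.01 (0.07). The call of VAV2 ended without OVCAR-8 replicate 2 (0.98). GAB2 lay at the threshold and did not pass under each of the 3 rescalings of the arrays (0.974 to 0.997), nor without OVCAR-8R replicate 2 or 4 or OVCAR-8 replicate 1 (0.98 to 0.99). STAT3, a relay to transcription, lay just under 2-fold at 0.997 (0.08), and passed without OVCAR-8R replicate 1 or 3 or OVCAR-8 replicate 3 or 4 (1.01 to 1.04), and with repeated quantile normalization (1.02), cyclic loess (1.09) or array weights (1.003). GRB2, SOS1 and PTPN11 had differences of 0.45, -0.90 and 0.06. Of 17 tested negative regulators, 3 were higher, the phosphatase genes PTPN12 (1.80, standard error 0.12), PTPN6 (1.11, 0.08) and PTPRF (1.06, 0.07). LRIG3, of the leucine-rich proteins that act on receptor levels, fell by 1.34 (0.07), whereas the ubiquitin ligase genes CBL and CBLB, which tag active receptors for breakdown, differed by 0.56 and -0.25, without passing. With LRIG3, 23.5% of the negative regulators tested were called, against 16.7% of all genes tested. The median differences were 0.33 for the adaptors and 0.27 for the negative regulators.

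The 10 genes were set beside the whole receptor tyrosine kinase family. Of 58 family genes, 53 were measured by a probeset of their own and 50 were tested, of which 9 were higher, 10 were lower and 31 did not pass. Outside the genes described here, 15 of 41 tested were called, which is 36.6% against 16.7% of all genes. EGFR rose by 3.03 (standard error 0.10) and its relative ERBB3 by 2.26 (0.11), whereas ERBB4 fell by 2.12 (0.11). The ephrin receptor gene EPHA2 rose by 1.45 (0.08), while its relatives EPHA7, EPHA3, EPHA6 and EPHA4 fell, with differences of -3.10, -1.98, -1.57 and -1.37. FGFR1 and FGFR4 rose by 1.41 and 1.40 and FGFR2 fell by 1.63. TIE1, a receptor of endothelium, rose by 1.24 and IGF1R by 1.098, a call that ended without OVCAR-8 replicate 2 (0.97), and ROR1 and FLT1 fell by 1.51 and by 1.39. The signals of KIT, FLT1 and EPHA6 in OVCAR-8R lay in the lowest quartile, so these genes entered the test only through OVCAR-8. Just above that quartile in OVCAR-8R lay FGFR2, EPHA7 and ERBB4 (means of 5.19, 5.23 and 5.25). The size of the falls of all these genes depends on the background there. With the filter at the median signal, 9 family genes were higher and 8 lower. Of the family, AXL had the largest rise and DDR2 the largest fall, and the median of the 50 genes was 0.01.

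**Figure D3:**
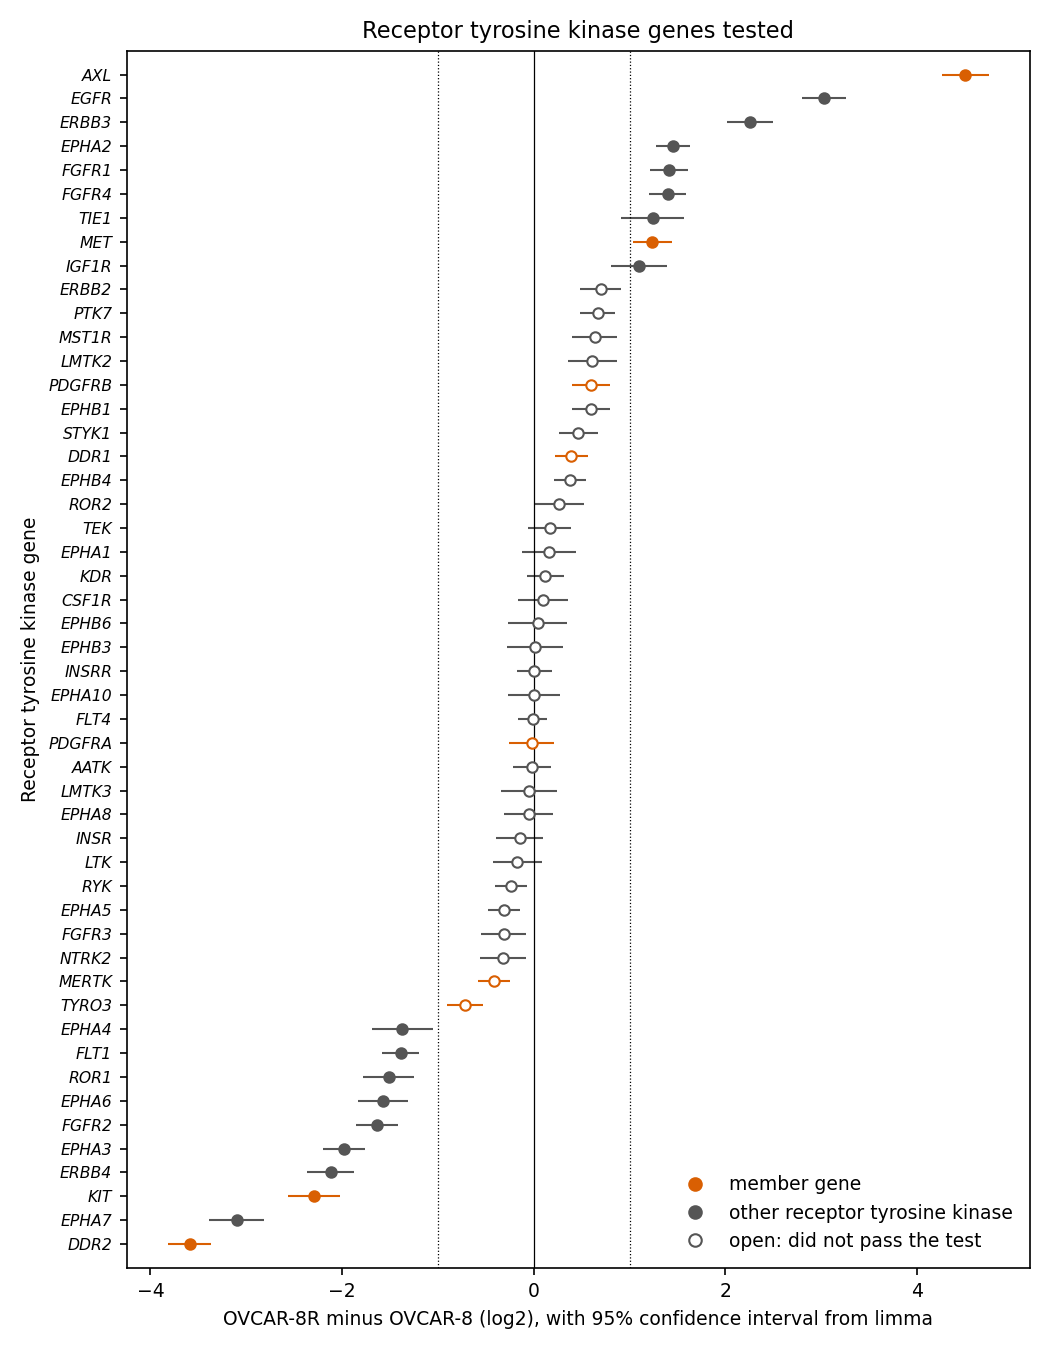
Difference OVCAR-8R minus OVCAR-8 (log2) with its 95% confidence interval from limma for the 50 receptor tyrosine kinase genes tested, with the 9 receptors described here in orange, filled where called and open where not. AXL lies at the upper end (4.50) and DDR2 at the lower end (-3.59), and the 31 open symbols lie between them.

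The genes whose profile lay nearest to that of AXL, by the root mean square difference over the 8 arrays after each gene was centred on its OVCAR-8 mean, were PEG10, an imprinted gene of retrotransposon origin (0.10 log2 units), TMBIM1 (0.15), the keratin gene KRT7 (0.16), TSPYL5 (0.17) and TRIML2 (0.18). They rose by 4.52, 4.36, 4.45, 4.56 and 4.46. Nearest to DDR2 were SLC16A10, a carrier of aromatic amino acids (0.11), the WNT receptor gene FZD3 (0.14), PDCD10 (0.16), TSPAN7 (0.16) and SERPINF1 (0.16), with differences of -3.55, -3.71, -3.65, -3.70 and -3.61. With 2 lines the measure finds genes with a like difference and a like spread, and nothing more.

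PDGFRA, PDGFRB, MERTK and KIT also mark other cell types. In bulk RNA, a change in the share of cells with a transcript and in the amount per cell cannot be told apart. The epithelial keratin genes KRT8 and KRT18 read 12.50 and 11.42 in OVCAR-8R and 9.54 and 9.53 in OVCAR-8, and 6 of 10 markers of ovarian carcinoma or epithelium were higher in OVCAR-8R, among them PAX8, with the summed linear signal of the list between 12728 and 13710 in OVCAR-8R and between 1966 and 2278 in OVCAR-8. The other 4 did not pass, among them WT1, with a difference of -0.86 and no overlap between the lines, CDH1 (E-cadherin), with one of -0.23 and no overlap, and MUC16 (CA125), with one of 0.07. Of 8 fibroblast markers, DCN and FAP lay in the lowest quartile in both lines, LUM fell by 1.15 into the lowest quartile in OVCAR-8R and COL1A1 rose, and the sum was between 1019 and 1128 in OVCAR-8R and between 470 and 529 in OVCAR-8. Without COL1A1, PDGFRA and PDGFRB, which are in the list, the sum of the other 5 was between 196 and 219 in OVCAR-8R and between 203 and 227 in OVCAR-8. Of 7 leukocyte and macrophage markers, PTPRC and CD3E lay in the lowest quartile in both lines and CD68, a lysosomal protein, rose by 2.52, and the sum ranged from 2678 to 2836 in OVCAR-8R and from 868 to 939 in OVCAR-8. CD68 alone made up 2236 to 2429.6 and 379 to 467 of these sums, and the 5 genes left without CD68 and MERTK summed to 194 to 238 in OVCAR-8R and 191 to 199.5 in OVCAR-8. The mast cell markers CPA3 and FCER1A, listed with KIT, lay in the lowest quartile in both lines, and the sum of these 3 ranged from 63.7 to 67.0 in OVCAR-8R and from 157 to 214 in OVCAR-8. That sum holds KIT itself, which fell, and was not taken without it, so it says nothing on CPA3 and FCER1A. None of the 6 endothelial markers passed the test, and their sum ranged from 328 to 382 in OVCAR-8R and from 316 to 345 in OVCAR-8. The part of these markers in the differences above was not tested.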

How the data were processed

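RNA of 4 OVCAR-8R and 4 OVCAR-8 spheroid samples was hybridized by the authors to Affymetrix Human Gene ST arrays. The deposited values are RMA signals from Affymetrix Expression Console, 1 intensity per probeset and array on a linear scale, and log2 was taken here. RMA equalizes the arrays, which removes any overall difference between the lines. Of 33297 probesets, 19460 are annotated to 1 gene. A probeset was left out where both lines had it in their lowest 25% of signal (log2 means under 5.11 in OVCAR-8R and 5.16 in OVCAR-8), as in the methods, which kept 25628. A gene is its kept probeset with the highest mean. Differences were tested with limma (version 3.58.1, R version 4.3.3) without a replicate block, and p-values were adjusted by Benjamini-Hochberg over all probesets that passed the filter. On simulated data for this comparison (25241 probesets tested), 95 of 100 changes of a log2 size of 1.5 and 97 of 100 of 2 were recovered. The changes were planted only in brighter probesets, and none was as near to the 2-fold threshold as those of MET or GAB2. Recovery of such smaller differences was not simulated. The precision is limited by the 4 arrays per line.

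The 10 genes and the lists were chosen with earlier results of these data known. The rule for naming took all 10 genes and every ligand, up to 8 further called receptor kinases and up to 4 called genes of every other list in each direction, and the 5 nearest profiles of AXL and DDR2. Other genes named, and the 5 within-class ratios, of which 2 were tested by exact permutation, were chosen with values in view. Upstream sequences are from RefSeq, in which all 10 genes matched. Alternatives were the methods' t-test, other filters and thresholds, treat, an intensity trend, 3 rescalings, array weights, the mean of all probesets, replicate blocking and the omission of each array.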

Additional observations from a re-analysis of the deposited data

Results flagged for a closer look

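None of the 10 genes had an array that stood apart from the other 3 of its line by Dixon's test. Among 110 sets of 4 arrays (55 named genes in both lines), 4 did, and chance gives about 1 in 20. EPHA3 read 7.37 on OVCAR-8 replicate 1 against 7.67 to 7.68 on the others. PLAU read 10.09 on OVCAR-8R replicate 1 against 10.18 to 10.20. PTPN6 read 6.76 on OVCAR-8 replicate 1 against 6.63 to 6.64. TSPAN7 read 5.78 on OVCAR-8R replicate 3 against 5.93 to 5.96.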

How the results depend on the processing

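Of the 21 alternatives, 8 of which left out 1 array each, the calls of AXL, GAS6, DDR2 and KIT held under all, and that of MET under all but treat. Their differences ranged from 4.39 to 4.56 for AXL, 1.73 to 1.96 for GAS6, -3.66 to -3.32 for DDR2 and -2.39 to -2.19 for KIT. PDGFRA, which was left out by the filter at the median signal, ranged from -0.09 to 0.03. Without the requirement of 2-fold, TYRO3 and MERTK were also lower and DDR1 and PDGFRB higher, so that 5 of the 10 genes were higher and 4 lower, where this rule called 57.6% of all genes tested. Then 18 and 16 receptor tyrosine kinases were higher and lower, 6 ligands were higher, collagen genes numbered 3 and 1, activation and shedding genes 6 and 2, adaptors 12 and 5 and negative regulators 8 and 2. With treat, 2 adaptors and 1 negative regulator were higher, and the calls of MET, PDGFA, IGF1R, TIE1, EPHA4, SPINT2, VAV2, GAB2, PTPN6 and PTPRF ended. Leaving out 1 array gave 3 higher and 2 lower of the 10 genes each time, and 8 to 9 higher and 10 lower in the family. The filter at the median signal gave 9 higher and 8 lower in the family. The replicate numbers did not pair the arrays (r of same-numbered deviations from -0.32 to 0.44). With a replicate block the family still had 9 higher and 10 lower, and the block changed no call in the lists.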
